A study of Homo sapiens with 6 samples.

Results

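The AP-1 and immediate-early factors examined were 10 genes, taken by symbol from the 26334 genes of the deposited count table: the FOS family (FOS, FOSB, FOSL1 and FOSL2), the JUN family (JUN, JUNB and JUND), ATF3, EGR1 and IER3. All 10 were present and all 10 were among the 16117 genes that passed the filter on low counts and were tested. They were measured by poly-A RNA-seq in MCF10DCIS.COM, a human breast cancer cell line that models ductal carcinoma in situ. The 3 control libraries (shLuc) came from cells carrying the vector pRSI-U6-shLuc-UbiC-TagRFP-2A-Puro, whose U6 promoter drives a hairpin against luciferase. The 3 silenced libraries (shWDR5) came from cells carrying pRSI-U6-shWDR5-UbiC-TagRFP-2A-Puro, with a hairpin against WDR5. Both groups carried TagRFP and the puromycin resistance gene, were selected with puromycin, and grew in DMEM/F12 with horse serum. The study's methods describe a pool of WDR5 hairpins, and the time between infection and lysis was not given in the sources used here. The labels do not say that the replicates came from separate cultures, so p-values measure the spread between these libraries, which may be technical.

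AP-1 is a dimeric transcription factor. JUN proteins pair with one another or with FOS proteins through a leucine zipper, and the dimer binds short DNA elements, while ATF3 belongs to a related branch that can pair with JUN proteins. Many of these genes are immediate-early genes: their transcription starts within minutes of serum, growth factor or stress signals, without new protein synthesis, and their mRNAs decay quickly. EGR1 is a zinc finger factor induced in the same way, and IER3 encodes a short-lived protein that acts in cell survival. In basal-like breast epithelium FOSL1 is a prominent AP-1 subunit and is linked to motility and to the mesenchymal state.

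WDR5, the core H3K4 methyltransferase subunit targeted by the hairpin, stood at 16.5, 15.2 and 16.1 RPKM in shLuc replicates 1, 2 and 3 and at 7.34, 7.65 and 6.52 RPKM in shWDR5 replicates 1, 2 and 3. RPKM here is the read count divided by exon length and by the library size after TMM scaling. WDR5 fell by 1.15 on the log2 scale (SE 0.07, edgeR adjusted p = 8.67e-07). The libraries held 38218108 to 57640167 counted reads. Of the mammary epithelial markers, 8 of 10 changed, beside 56.5% of all tested genes. Among them KRT14 (44.1 to 108 RPKM), KRT6A (27.5 to 97.7 RPKM), KRT17 (1372 to 2624 RPKM) and KRT19 (0.892 to 3.18 RPKM) rose. CDH1 (103 to 50.3 RPKM) and EPCAM (165 to 131 RPKM) fell. The abundant keratins KRT8 (894 to 917 RPKM) and KRT18 (890 to 821 RPKM) did not pass the test. The summed epithelial markers ranged from 3746 to 4024 RPKM in shLuc and from 5130 to 5789 RPKM in shWDR5. Fibroblast markers summed to 3.65 to 3.998 RPKM in shLuc and 2.52 to 3.01 RPKM in shWDR5, with COL1A1 as the 1 of 2 tested that changed (it fell), LUM at 0 reads in all 6 libraries, and at most 4 reads in any library for COL1A2, COL3A1 and DCN. Endothelial markers summed to 1.72 to 1.79 RPKM in shLuc and 1.05 to 1.19 RPKM in shWDR5, and PECAM1 fell. Leukocyte markers summed to 6.46 to 7.85 RPKM in shLuc and 6.00 to 7.08 RPKM in shWDR5. CD68, which did not pass the test, made up most of this sum (mean 6.39 RPKM in shLuc and 5.97 RPKM in shWDR5). CD14 fell, CD3E had 0 reads and PTPRC at most 7 reads. The part of these marker levels in the results below was not tested.

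Upon WDR5 silencing 6 of the 10 genes rose, 1 fell and 3 did not pass the test. FOS, FOSL2, JUN, JUNB, EGR1 and IER3 were higher in shWDR5 cells, by 23.2% to 38.1%. FOSL1 was lower by a smaller amount, and FOSB, JUND and ATF3 were not called. Over all genes tested, 56.5% were called at an adjusted p under 0.05, 26.6% as higher and 29.9% as lower, so that 7 of 10 called is a share not far from the background. The median log2 fold change of the 10 genes was 0.34, beside -0.01 over all genes tested. The members were chosen with earlier results of these data known, so this median is not a test of the class. The rises were small. The study's own definition of a changed gene, which also asks for an absolute log2 fold change of at least 0.6, was met by 18.4% of the tested genes and by 0 of the 10 members. The median absolute log2 fold change over all tested genes was 0.31, and JUN, the largest of the 10, stood at the 66.5th percentile of that scale. The values of the 2 groups did not overlap for 7 members, the same 7 that were called, against 62.3% of all tested genes. As these are bulk libraries, a change in the share of cells expressing a gene and a change in its level per cell cannot be told apart.

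**Figure D1:**
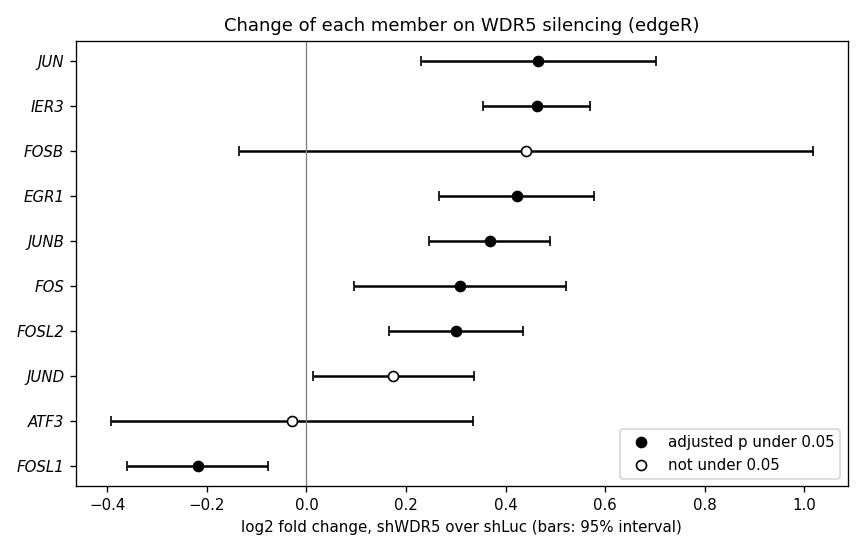
Log2 fold change of each of the 10 genes, shWDR5 over shLuc, from the edgeR fit across all genes. Points are the estimates, bars the 95% intervals, filled points an adjusted p under 0.05. The 6 genes that rose lie between 0.30 and 0.47, FOSL1 lies at -0.22, and the interval of FOSB runs from -0.13 to 1.02.

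IER3 was the most abundant of the 10 and the most tightly measured. Its level was 419, 418 and 424 RPKM in shLuc replicates 1, 2 and 3 and 569, 598 and 569 RPKM in shWDR5 replicates 1, 2 and 3. The 3 silenced libraries thus all lay well above the 3 controls, which differed from one another by under 2% (SD 3.37, n = 3). IER3 rose by 37.8% (95% interval 27.9% to 48.4%), a log2 fold change of 0.46 (SE 0.05, edgeR adjusted p = 2.09e-05). The gene lies on the minus strand at chr6:30710976-30712327 (hg19) in 2 exons, and it kept its call in each of the 13 alternative fits.

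EGR1 was second in abundance. It was measured at 107, 113 and 130 RPKM in the shLuc replicates and at 155, 159 and 155 RPKM in the shWDR5 replicates. All shWDR5 values were higher, and they lay closer together (SD 2.26) than the controls (SD 11.8). EGR1 rose by 34.0% (95% interval 20.4% to 49.2%), a log2 fold change of 0.42 (SE 0.07, edgeR adjusted p = 0.000474). The gene lies on the plus strand at chr5:137801181-137805004 (hg19) in 2 exons. Its promoter is shown because it carries the elements through which immediate-early genes are classically switched on: CArG boxes, which bind serum response factor, the CRE core TGACG and an EGR site, GCGNGGGCG. The stretch covers the 250 bases before the transcription start (chr5:138465229-138465478, plus strand, RefSeq, GRCh38.p14), with the matches in capitals.
EGR1: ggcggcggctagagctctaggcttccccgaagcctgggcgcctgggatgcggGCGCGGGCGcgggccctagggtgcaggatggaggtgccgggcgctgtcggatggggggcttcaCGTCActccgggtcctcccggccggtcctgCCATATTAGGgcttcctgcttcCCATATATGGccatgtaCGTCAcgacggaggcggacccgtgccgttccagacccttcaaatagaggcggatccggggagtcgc
The CArG boxes began 105 and 83 bases before the start, the CRE cores 135 and 66 bases before it and the EGR site 198 bases before it. Over all 35116 RefSeq promoter windows of 300 bases (250 before and 50 after the start), 1.29% held a CArG box, 24.6% the CRE core and 9.43% the EGR site, with both strands searched and overlaps between motifs allowed. Sequence entries matched 8 of the 10 genes (all but FOSL1 and IER3), and of these 8 EGR1 alone held a CArG box or an EGR site in this window. Bases outside the window were not searched, so the other members may hold such elements there.

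FOS, the founding member of the family, was higher in shWDR5 cells but varied between replicates. It stood at 53.8, 56.6 and 67.5 RPKM in shLuc replicates 1, 2 and 3 and at 68.6, 82.4 and 69.2 RPKM in shWDR5 replicates 1, 2 and 3. The groups did not overlap, yet shLuc replicate 3 came within about 1 RPKM of the lowest silenced library. FOS rose by 23.8% (95% interval 6.84% to 43.5%), a log2 fold change of 0.31 (SE 0.10, edgeR adjusted p = 0.0185). This call was lost without shLuc replicate 2 (adjusted p = 0.0818), without shWDR5 replicate 2 (adjusted p = 0.0895) and with scaling by total counts only (adjusted p = 0.0546). The gene lies on the plus strand at chr14:75745481-75748937 (hg19) in 4 exons.

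FOSB, the closest relative of FOS and one of the most inducible members, was the most variable of the 10. Its level was 15.1, 16.6 and 31.3 RPKM in the shLuc replicates and 24.3, 37.7 and 23.4 RPKM in the shWDR5 replicates. The groups overlapped: shLuc replicate 3 was higher than shWDR5 replicates 1 and 3. The coefficient of variation was 42.4% in shLuc and 28.1% in shWDR5, and the log2 fold change of 0.44 (95% interval -0.13 to 1.02) did not pass the test (edgeR adjusted p = 0.174). Without shLuc replicate 3 the log2 fold change was 0.84 with an edgeR adjusted p of 0.00886, while leaving out any other single library left FOSB uncalled, with log2 fold changes of 0.18 to 0.56. FOSB lies on the plus strand at chr19:45971253-45978437 (hg19). The 150 bases before the start of FOS (chr14:75278678-75278827) and FOSB (chr19:45467846-45467995), both on the plus strand of GRCh38.p14 from RefSeq, are shown side by side because these 2 members moved together between replicates, with the CRE core TGACG and the TATA box TATAAA in capitals.
FOS: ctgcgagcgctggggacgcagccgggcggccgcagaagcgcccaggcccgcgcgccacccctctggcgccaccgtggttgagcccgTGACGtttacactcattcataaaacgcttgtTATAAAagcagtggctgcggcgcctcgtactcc
FOSB: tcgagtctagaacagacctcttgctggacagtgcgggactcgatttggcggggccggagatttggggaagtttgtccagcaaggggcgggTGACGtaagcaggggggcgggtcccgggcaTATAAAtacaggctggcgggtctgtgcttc
The CRE core began 64 bases before the start in FOS and 60 in FOSB, and the TATA box 33 and 30 bases before it. The TATA box letters occurred in 11.5% of all promoter windows. The CRE core was found in 7 of the 8 members with an entry (FOS, FOSB, FOSL2, JUN, JUNB, JUND and EGR1), beside 24.6% of all promoter windows. JUN peaked in the same libraries as FOS and FOSB, with a CRE core and no TATA box match in its window. JUNB held both elements. Its deviation from the group mean on the log2 scale was 0.06 in shLuc replicate 3, its highest control, and -0.04 in shWDR5 replicate 2. A link between these elements and the replicate pattern was not tested.

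FOSL1, which encodes FRA1, was the only member of the 10 that fell. It was measured at 83.3, 84.5 and 74.0 RPKM in shLuc replicates 1, 2 and 3 and at 71.7, 67.0 and 69.2 RPKM in shWDR5 replicates 1, 2 and 3. The control replicate 3 was the lowest control and lay just above the highest silenced library. FOSL1 fell by 0.22 on the log2 scale (SE 0.06, 95% interval -0.36 to -0.08, edgeR adjusted p = 0.0133), and the call was lost without shWDR5 replicate 2 (adjusted p = 0.0606). FOSL2, which encodes FRA2 and sits with FOSL1 among the more slowly induced FOS proteins, went the other way. Its level was 54.2, 54.3 and 48.5 RPKM in the shLuc replicates and 66.4, 65.4 and 61.6 RPKM in the shWDR5 replicates, without overlap. FOSL2 rose by 23.2% (95% interval 12.2% to 35.2%), a log2 fold change of 0.30 (SE 0.06, edgeR adjusted p = 0.00169). FOSL1 lies on the minus strand at chr11:65659607-65667997 and FOSL2 on the plus strand at chr2:28615779-28637516 (hg19).

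JUN, the partner of FOS in the classical AP-1 dimer, showed the largest log2 fold change of the 10. It stood at 20.4, 19.7 and 26.6 RPKM in the shLuc replicates and at 29.6, 33.2 and 29.3 RPKM in the shWDR5 replicates. Again shLuc replicate 3 was the highest control and shWDR5 replicate 2 the highest silenced library. JUN rose by 38.1% (95% interval 17.3% to 62.6%), a log2 fold change of 0.47 (SE 0.11, edgeR adjusted p = 0.00349). JUNB, a JUN protein that can oppose JUN at some promoters, was the most abundant of its family. Its level was 69.4, 66.9 and 72.4 RPKM in shLuc and 89.3, 87.2 and 92.9 RPKM in shWDR5, with little spread in either group. JUNB rose by 29.1% (95% interval 18.7% to 40.4%), a log2 fold change of 0.37 (SE 0.05, edgeR adjusted p = 0.00023). Both genes are intronless, JUN on the minus strand at chr1:59246463-59249785 and JUNB on the plus strand at chr19:12902310-12904125 (hg19). The 150 bases before their starts (chr1:58784048-58784197, minus strand, and chr19:12791336-12791485, plus strand, GRCh38.p14, RefSeq) are shown because both rose, with the CRE core and the TATA box in capitals.
JUN: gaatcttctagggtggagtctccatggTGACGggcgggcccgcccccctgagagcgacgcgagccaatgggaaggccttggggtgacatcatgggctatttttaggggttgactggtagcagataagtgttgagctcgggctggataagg
JUNB: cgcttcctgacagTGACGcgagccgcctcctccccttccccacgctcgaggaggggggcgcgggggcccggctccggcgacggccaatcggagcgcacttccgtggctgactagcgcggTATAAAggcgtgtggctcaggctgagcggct
The CRE core began 123 bases before the start in JUN and 137 in JUNB, and the TATA box letters were matched in JUNB, 31 bases before its start.

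JUND, the member of the JUN family usually described as constitutive, moved least among the JUN genes. It was measured at 16.9, 16.4 and 18.6 RPKM in the shLuc replicates and at 18.1, 20.2 and 20.2 RPKM in the shWDR5 replicates, with shLuc replicate 3 above shWDR5 replicate 1. The log2 fold change was 0.17 (95% interval 0.01 to 0.34, edgeR adjusted p = 0.0622). With the replicate number as a block in the fit, the same gene passed the test at a log2 fold change of 0.17 (adjusted p = 0.0136). JUND lies on the minus strand at chr19:18390504-18392466 (hg19) and was the member whose promoter window held the full CRE, TGACGTCA, found in 1.85% of all windows. ATF3, a stress-induced factor, was barely expressed, at 1.34, 0.963 and 1.65 RPKM in the shLuc replicates and 1.35, 1.29 and 1.24 RPKM in the shWDR5 replicates. All silenced values fell inside the control range, and the log2 fold change of -0.03 (95% interval -0.39 to 0.33, edgeR adjusted p = 0.894) corresponds to an interval from -23.8% to 26.0%. ATF3 lies on the plus strand at chr1:212738676-212794119 (hg19) and had 95 to 186 reads per library.

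**Figure D2:**
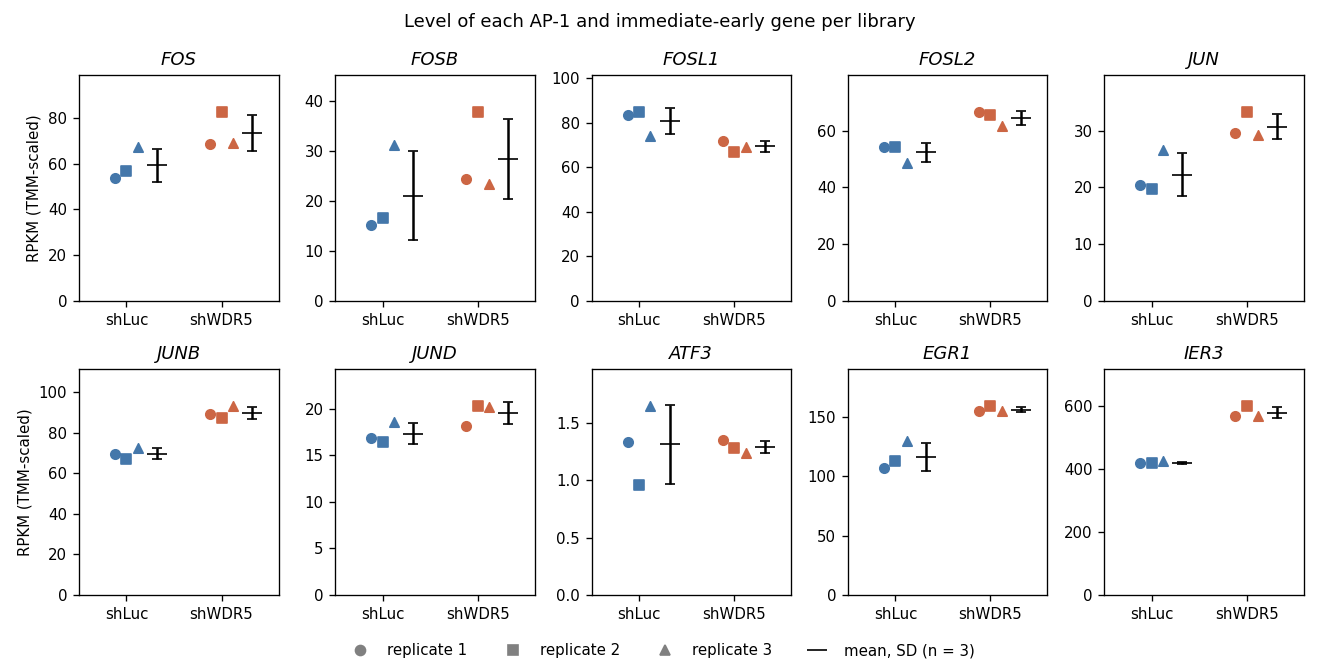
TMM-scaled RPKM of each of the 10 genes in the 3 shLuc (blue) and 3 shWDR5 (orange) libraries, each panel on its own linear axis from 0. Marker shapes are the replicate numbers and the black bars the mean and SD (n = 3). The groups are separate for 7 genes and overlap for FOSB, JUND and ATF3, and shLuc replicate 3 (triangle) is the highest control for 8 of the 10 genes.

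On the length-corrected scale the order of the levels in shLuc cells was IER3, EGR1, FOSL1, JUNB, FOS, FOSL2, JUN, FOSB, JUND and ATF3. Neighbouring values overlapped between replicates for JUNB and FOS, FOS and FOSL2, JUN and FOSB, and FOSB and JUND. In shWDR5 cells FOSL1 moved from rank 3 to rank 5, with 69.3 ± 2.33 RPKM (SD, n = 3), behind JUNB at 89.8 ± 2.88 RPKM and FOS at 73.4 ± 7.82 RPKM, although the values of FOS and FOSL1 overlapped there. The other ranks were unaltered except that JUNB moved from 4 to 3 and FOS from 5 to 4. The 10 genes were mostly well expressed: IER3 stood at the 99.3rd percentile of the tested genes, EGR1 at the 97.4th and ATF3 at the 28.8th.

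The opposite movement of FOSL1 and its relatives went with a different make-up of the FOS transcripts. FOSL1 accounted for 40.4%, 39.9% and 33.4% of the summed FOS-family RPKM in shLuc replicates 1, 2 and 3 and for 31.0%, 26.5% and 31.0% in shWDR5 replicates 1, 2 and 3. The groups did not overlap, and the mean share changed from 37.9% ± 3.86 to 29.5% ± 2.58 (SD, n = 3; 2-sided exact permutation test, p = 0.1, the smallest that 3 against 3 libraries allow). The shares of FOS (27.8% to 31.1%), FOSL2 (24.6% to 27.4%) and FOSB (9.77% to 11.98%) had higher means in shWDR5 and overlapped between groups. A ratio within a library does not depend on how libraries are scaled. The FOSL2 to FOSL1 ratio of RPKM was 0.650, 0.642 and 0.656 in the shLuc replicates and 0.926, 0.976 and 0.891 in the shWDR5 replicates. The FOS to FOSL1 ratio was 0.646, 0.670 and 0.912 in shLuc and 0.957, 1.23 and 1.00 in shWDR5. FOSL1 fell, and FOS and FOSL2 rose, each without overlap between groups, so both ratios had to separate the groups. The FOS-family sum was also higher without overlap (206 to 221 RPKM in shLuc, 223 to 253 RPKM in shWDR5). The FOSL1 share therefore had to separate the groups too, and its permutation p-value was fixed in advance. The share and both ratios are no further evidence of a shift beyond the single genes. The first ratio had far less spread than the second. The summed FOS family stood at 213 ± 7.52 RPKM in shLuc and 236 ± 15.2 RPKM in shWDR5.

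Within the JUN family the make-up moved little. JUNB supplied 63.8% ± 1.96 of the summed RPKM in shLuc and 64.1% ± 1.85 in shWDR5 (SD, n = 3). JUND supplied 15.8%, 15.97% and 15.8% in the shLuc replicates and 13.2%, 14.4% and 14.2% in the shWDR5 replicates, without overlap (exact permutation p = 0.1). The summed JUN family stood at 109 ± 7.57 RPKM in shLuc and 140.0 ± 2.76 RPKM in shWDR5, and the 3 silenced libraries (137, 141 and 142 RPKM) all lay above the highest control (118 RPKM).

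**Figure D3:**
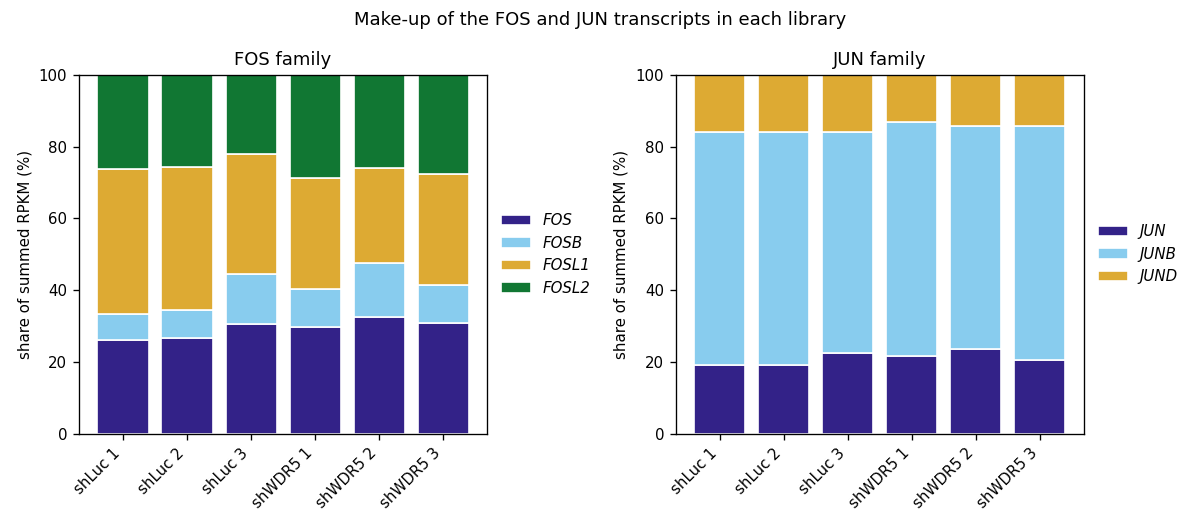
Share of each gene in the summed TMM-scaled RPKM of the FOS family (left) and the JUN family (right) in each of the 6 libraries, as stacked bars that add to 100%. The FOSL1 segment averages 37.9% in shLuc and 29.5% in shWDR5, while JUNB stays near 64% in both groups.

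The replicates of a group differed in several members at once. In shLuc replicate 3 FOS, FOSB, JUN, JUNB, JUND, ATF3, EGR1 and IER3 were at their highest control value, while FOSL1 and FOSL2 were at their lowest. In shWDR5 replicate 2 FOS, FOSB, JUN, JUND, EGR1 and IER3 were at their highest silenced value. For JUND this was close to a tie, at 20.239 RPKM there and 20.236 RPKM in shWDR5 replicate 3. Thus 8 of 10 members peaked in shLuc replicate 3 and 6 of 10 in shWDR5 replicate 2, beside 30.1% and 25.5% of all tested genes. Of the 31 tested genes of a list of other immediate-early genes, 13 (41.9%) peaked in the first library and 12 (38.7%) in the second. The deviation from the group mean in shLuc replicate 3 was 0.65 on the log2 scale for FOSB, 0.36 for ATF3, 0.27 for JUN, 0.19 for FOS and 0.16 for EGR1, against 0.01 for IER3. Without both libraries, an alternative chosen after seeing the data, FOSB was higher in shWDR5 by a log2 fold change of 0.58. FOSB peaked in these libraries, so leaving them out narrows its spread (SE 0.26 to 0.075) and its call there is no support. In that fit 8 of the 10 members were called, beside 7027 of the 16206 genes tested.

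**Figure D4:**
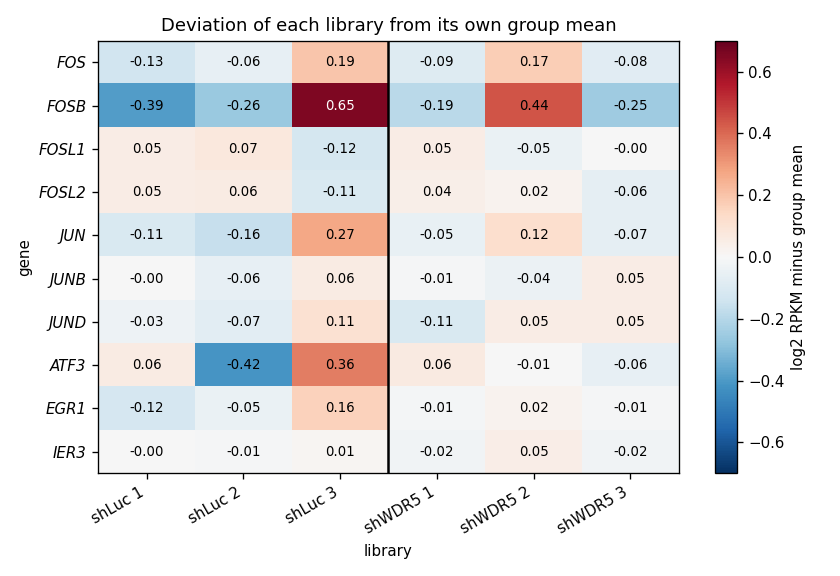
Deviation of each library from the mean of its own group, in log2 RPKM, for the 10 genes (rows) in the 6 libraries (columns); red is above and blue below the group mean. FOSB deviates most, by 0.65 in shLuc replicate 3 and 0.44 in shWDR5 replicate 2.

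Other genes of the immediate-early class moved in both directions. Of 32 listed, 31 were tested: 16 rose, 8 fell and 7 did not pass the test. The called share was 77.4% beside 56.5% of all tested genes, and the median log2 fold change 0.27 beside -0.01. The list was chosen with earlier results of these data known, so the higher share is not a result about the class. The largest rises were in CTGF, a secreted matricellular protein (33.8 ± 2.00 to 92.9 ± 3.33 RPKM), BTG2, an antiproliferative gene (17.3 ± 1.09 to 36.7 ± 1.82 RPKM), PTGS2, the inducible cyclooxygenase (2.14 ± 0.328 to 3.81 ± 0.856 RPKM), and NR4A3, an orphan nuclear receptor with only 6 to 9 reads per shLuc library and 21 to 22 per shWDR5 library. The log2 fold changes of these 4 genes lay between 0.84 and 1.46. The genes that fell most were the nuclear receptor NR4A1 and the relatives of EGR1. NR4A1 dropped by 0.98 on the log2 scale (SE 0.08, edgeR adjusted p = 3.74e-06), from 12.7 ± 0.406 to 6.43 ± 0.656 RPKM. EGR2, EGR3 and EGR4 dropped by 0.60, 0.63 and 0.64 on the log2 scale (edgeR adjusted p = 0.000456, 0.00115 and 0.00667), whereas EGR1 rose by 0.42. EGR3 stood at 12.7 ± 2.49 RPKM in shLuc and 8.22 ± 0.538 RPKM in shWDR5. The ratio of EGR1 to EGR3 RPKM was 8.72, 7.30 and 12.4 in the shLuc replicates and 20.2, 19.1 and 17.8 in the shWDR5 replicates. EGR1 and EGR3 each differed without overlap and in opposite directions, so this ratio had to separate the groups.

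The other bZIP genes that can join AP-1 dimers changed in both directions in equal number. Of 14 listed, 12 were tested, of which 4 rose and 4 fell. The called share was 66.7%, not far from the 56.5% of all tested genes, and the median log2 fold change was -0.02. MAF, a large MAF factor, rose from 3.01 ± 0.201 to 7.34 ± 1.03 RPKM (log2 fold change 1.29, SE 0.10, edgeR adjusted p = 2.96e-06), and MAFG, a small MAF partner, rose from 11.1 ± 0.698 to 15.1 ± 0.997 RPKM. ATF7 rose slightly (log2 fold change 0.23). The small MAF gene MAFF fell from 26.3 ± 1.31 to 17.9 ± 1.15 RPKM (log2 fold change -0.56, edgeR adjusted p = 5.49e-05). BATF3 fell from 1.36 ± 0.239 to 0.578 ± 0.074 RPKM, BATF2 from 0.48 ± 0.089 to 0.189 ± 0.0478 RPKM and CREB5 from 2.24 ± 0.205 to 1.58 ± 0.136 RPKM.

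Upstream of the members, in the kinases and the serum response factor complex, 9 of 25 genes rose, 5 fell and 11 did not pass the test, a called share of 56.0% against 56.5% of all tested genes, with a median log2 fold change of 0.05. SRF, which binds CArG boxes, rose from 13.6 ± 0.176 to 18.2 ± 0.584 RPKM (log2 fold change 0.42, SE 0.05, edgeR adjusted p = 8.53e-05), and its ETS partner ELK4 fell from 11.7 ± 1.87 to 6.92 ± 1.07 RPKM. MAPK7, which encodes ERK5, and RPS6KA4, a kinase that acts on histone H3 and CREB, rose by log2 fold changes of 0.70 and 0.62, and MAPK10, a JNK kinase at 0.176 RPKM in shLuc, by 0.49. MAPK9, which encodes JNK2, fell from 15.6 ± 0.443 to 8.78 ± 0.562 RPKM, and RPS6KA1, which encodes RSK1, from 42.6 ± 2.69 to 24.8 ± 0.676 RPKM. MAP2K6, a kinase of p38, fell from 0.472 ± 0.129 to 0.197 ± 0.0407 RPKM. Among 14 feedback and turnover genes 3 rose, 4 fell and 7 did not pass the test, a called share of 50%, below the 56.5% of all tested genes. The MAPK phosphatases DUSP5 and DUSP4 fell (log2 fold changes -0.59 and -0.56), as did SPRED2 (-0.31) and ZFP36L2 (-0.27), an RNA-binding protein that promotes mRNA decay. DUSP10, a phosphatase of JNK and p38, rose by a log2 fold change of 0.44, and so did DET1 (0.34) and FBXW7 (0.21), both parts of ubiquitin ligases that act on JUN.

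Genes often described as AP-1 targets moved in both directions. Of 24 listed, 22 were tested: 11 rose, 7 fell and 4 did not pass the test. The called share was 81.8% beside 56.5% of all tested genes, and the median log2 fold change 0.13. This list too was chosen with earlier results of these data known, so its higher share is not a result about AP-1 targets. MMP9, a gelatinase, rose from 2.59 ± 0.291 to 33.3 ± 6.89 RPKM (log2 fold change 3.68, SE 0.16, edgeR adjusted p = 1.19e-07). VIM, the intermediate filament vimentin, rose from 180.5 ± 18.9 to 418 ± 12.5 RPKM, and MMP13 from 3 to 7 reads per shLuc library to 13 to 20 reads per shWDR5 library. In contrast MMP1, the interstitial collagenase, fell from 19.0 ± 1.85 to 11.8 ± 0.811 RPKM (log2 fold change -0.68, edgeR adjusted p = 6.71e-05) and TGFB1, a TGF-beta ligand, from 9.04 ± 0.617 to 5.56 ± 0.405 RPKM. The keratinocyte differentiation genes IVL and SPRR1B also fell, with log2 fold changes of -0.48 and -0.47.

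**Figure D5:**
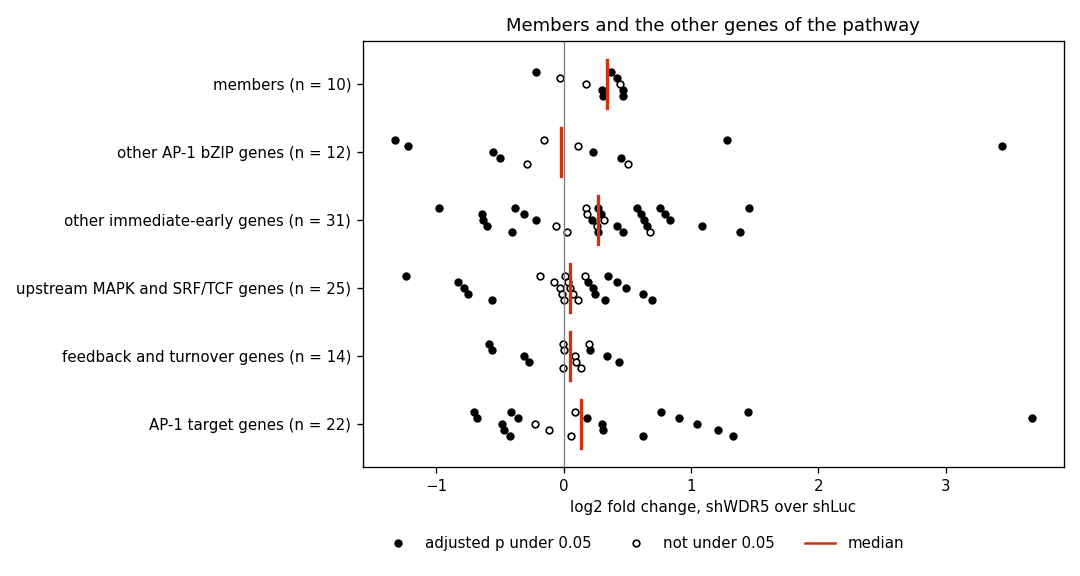
Log2 fold change, shWDR5 over shLuc, of the 10 members and of the tested genes of the 5 other lists, one point per gene, filled where the adjusted p was under 0.05, with the median of each list in red. The members lie between -0.22 and 0.47, while other immediate-early genes run from -0.98 to 1.46 and the AP-1 target list reaches 3.68 with MMP9.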

How the data were processed

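Raw read counts per gene were deposited for 3 shLuc and 3 shWDR5 libraries. Per the labels, the authors prepared TruSeq poly-A libraries, aligned reads with TopHat2 2.1.0 to hg19 and counted them with featureCounts; the strand setting is not given in the sources used here. The exons of the members overlapped no other gene of the table. A second table with the authors' own edgeR 3.2.2 comparison (fold changes and p-values) was not used. Here genes passing filterByExpr (minimum count 10) were tested with edgeR 4.0.16 (quasi-likelihood F test, TMM, group term, Benjamini-Hochberg over all 16117 genes, called at 0.05); SE is the absolute log2 fold change divided by the square root of F. The test was checked on simulated data. RPKM used the table's exon lengths. The reported fit used no pairing. Deviations from group means correlated between same-numbered libraries at 0.722, 0.111 and 0.289 (12108 genes with a mean count over 100), so the value with a replicate block, an alternative fit, is given where it changed a call. The evidence for pairing is mixed: shLuc 2 with shWDR5 3 gave 0.527 and shLuc 3 with shWDR5 2 gave 0.213, and over all tested genes the second pair gave 0.0358. Members and lists were chosen with earlier results of these data known. Named list genes were the up to 4 called genes with the largest change in each direction, of which some are not reported here. Alternatives were RLE scaling, total counts, no filter, DESeq2 1.42.0, limma-voom 3.58.1, a replicate block, the study's call rule and leaving out each library.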

Additional observations from a re-analysis of the deposited data

How the results depend on the processing

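IER3, EGR1, FOSL2, JUN and JUNB kept their direction and call in all 13 alternative fits (12 planned, 1 added after seeing the data). Over the fits without 1 library, 5 members (without shWDR5 replicate 2) to 9 members (without shLuc replicate 3) were called. Of all genes tested, 8120 of 16306 were called without shWDR5 replicate 2 and 8287 of 16372 without shLuc replicate 3. The largest such count was 8847 of 16321 genes, without shLuc replicate 1, where 7 members were called. Under the study's call rule, which adds a size and a level, 2962 genes (18.4% of those tested) were called in place of 9112. The members called were 0 of 10 in place of 7, and the pathway genes 28 in place of 71. These were 12 of 31 other immediate-early genes, 9 of 22 AP-1 targets and 5 of 25 upstream genes. The rest were 2 of 12 other bZIP genes and 0 of 14 feedback genes. As the lists were chosen with earlier results known, these shares are not a result about them. With total counts only FOS had a log2 fold change of 0.25 and lost its call; the median of all genes moved from -0.01 to -0.07. JUND passed the test with RLE scaling (0.19) and with the replicate block (0.17), and the block changed no other member's call. Leaving out 1 library gave log2 fold changes of 0.22 to 0.41 for FOS, 0.18 to 0.84 for FOSB, -0.28 to -0.18 for FOSL1, 0.13 to 0.23 for JUND and -0.21 to 0.15 for ATF3, which changed sign without shLuc replicate 3. JUND also passed the test without shLuc replicate 3 and without shWDR5 replicate 1. Without both shLuc replicate 3 and shWDR5 replicate 2, the libraries in which FOSB peaked, FOSB was at 0.58 and ATF3 at 0.15. The cause of these shifts was not tested. At 38218108 to 57640167 reads per library, counting error is small for all members but ATF3, and 3 libraries a group limit the precision.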
